A study of Caenorhabditis elegans with 2 samples.

Results

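The snoRNA genes with their own transcription unit are the annotated snoRNA genes of Caenorhabditis elegans that do not lie wholly within a protein-coding gene on the same strand. By that rule 163 of the 346 snoRNA genes on the 6 nuclear chromosomes belonged to the set, and the other 183 were nested in a same-strand host gene. The rule left in 7 genes that lay within a same-strand gene neither protein-coding nor snoRNA. It also left in 1 that partly overlapped a same-strand protein-coding gene. The annotation holds 46890 genes in all. The study profiled the genome-wide binding of TBP-1, the worm's TATA-binding protein, by chromatin immunoprecipitation and sequencing in whole animals. Both samples came from strain OP746, which carries unc-119(tm4063) and the transgene wgIs746, a tbp-1 gene with a TY1, EGFP and 3xFLAG tag together with a rescuing unc-119(+). The animals were mixed-sex young adults, 65 hours old, synchronised as starved first-stage larvae after bleaching. Chromatin was sonicated to fragments of 200 to 800 bp and precipitated with an anti-GFP antibody. The labels call the samples biological replicates 1 and 2 of this single group, and there is no second condition. The antibody therefore reports the tagged protein made from the transgene, averaged over all cell types of the body. Fewer cells with TBP-1 at a gene and less TBP-1 per cell cannot be told apart in such material.

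Small nucleolar RNAs pair with other RNAs, mostly ribosomal RNA, and guide enzymes to the bases to be modified. Those of the box C/D family guide 2′-O-methylation with the methyltransferase fibrillarin, and those of the box H/ACA family guide the conversion of uridine to pseudouridine with dyskerin. Many animal snoRNAs are cut out of introns and need no promoter, while others are transcribed from promoters of their own. TBP takes part in initiation by RNA polymerase II and RNA polymerase III. At tRNA genes it arrives as part of TFIIIB, after TFIIIC has bound the A box and B box inside the gene. At snRNA genes it is brought in through the SNAP complex, which binds an element upstream of the start.

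A gene was counted as occupied when the summit of a reproducible peak lay within 500 bp of its annotated 5′ end. Of the 163 genes 82 were occupied (50.3%), against a background of 8.97% over all annotated genes. The same count was 83 among the strongest 3862 peaks of replicate 1, where the background was 8.99%, and 84 in replicate 2, where it was 8.74%. In both replicates 79 genes were occupied, 4 in replicate 1 alone, 5 in replicate 2 alone and 75 in neither. The 82 genes had 81 distinct peaks, because C27H5.9 and C27H5.10 shared 1.

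Of the 82 occupied genes, 33 had one kind of letters before their 5′ ends, 20 had another, 1 had both and 28 had neither. The sequences that show the letters are given first. Each is the 80 bases before the annotated 5′ end followed by the first 20 bases of the gene, from the WBcel235 genome (ce11), 5′ to 3′ on the strand named. The first kind had, upstream of the gene, the letters that tRNA genes hold inside. Capitals mark a match to TG followed by GCNNAGTGG, the letters of an A box, with at most 2 mismatches, and a match to GTTCNANNC, the letters of a B box, with at most 1. The 5 genes shown are those with the strongest peaks among the genes that had the B box letters and that could be printed.
T06C12.16, chrV:15873907-15874006, minus strand: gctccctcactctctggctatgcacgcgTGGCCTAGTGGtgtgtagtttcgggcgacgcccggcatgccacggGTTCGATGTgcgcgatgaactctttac
W03C9.9, chrII:11960818-11960917, plus strand: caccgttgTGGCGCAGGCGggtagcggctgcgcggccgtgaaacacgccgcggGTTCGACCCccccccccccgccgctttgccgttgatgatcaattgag
T03F7.8, chrV:11314178-11314277, plus strand: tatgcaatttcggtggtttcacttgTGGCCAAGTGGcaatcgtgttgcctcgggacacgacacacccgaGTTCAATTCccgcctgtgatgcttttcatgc
F32E10.10, chrIV:7574042-7574141, plus strand: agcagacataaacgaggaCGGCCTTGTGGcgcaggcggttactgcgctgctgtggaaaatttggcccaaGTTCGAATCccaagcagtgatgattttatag
H09I01.2, chrIV:8253014-8253113, plus strand: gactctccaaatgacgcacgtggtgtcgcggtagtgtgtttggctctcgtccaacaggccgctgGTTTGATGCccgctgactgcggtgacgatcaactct
In the first 4 both boxes were matched. H09I01.2 had the B box letters, with 1 mismatch, and no A box match under these settings.

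The second kind lacked the B box letters and had TGTCGGCC, matched with at most 1 mismatch and marked by capitals, in the stretch before the gene. This element was found in these data after the peaks had been ranked, and no factor is assigned to it here. The 5 genes shown are those with the strongest peaks among the genes with this element that could be printed.
Y55F3BR.9, chrIV:867114-867213, minus strand: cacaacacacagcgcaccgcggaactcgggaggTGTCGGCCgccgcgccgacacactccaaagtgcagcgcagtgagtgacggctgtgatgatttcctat
Y67A10A.14, chrIV:14327102-14327201, minus strand: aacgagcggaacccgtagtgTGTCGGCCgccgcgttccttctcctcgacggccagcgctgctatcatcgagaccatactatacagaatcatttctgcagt
T26A8.6, chrIV:8428720-8428819, minus strand: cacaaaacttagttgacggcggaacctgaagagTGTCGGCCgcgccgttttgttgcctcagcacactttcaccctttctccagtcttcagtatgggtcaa
ZK185.9, chrIV:4538897-4538996, minus strand: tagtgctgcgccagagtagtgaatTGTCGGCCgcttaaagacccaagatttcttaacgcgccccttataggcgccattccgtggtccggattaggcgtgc
M03D4.78, chrIV:6117857-6117956, minus strand: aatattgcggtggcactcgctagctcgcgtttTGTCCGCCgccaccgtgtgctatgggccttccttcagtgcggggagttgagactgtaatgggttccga
The match was exact in the first 4 and had 1 mismatch in M03D4.78.

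Peaks were ranked within each list by the authors' deposited signal value, with rank 1 the strongest, because no source used here states the scale of that value. The set held the strongest reproducible peak of the genome, that of T06C12.16, which ranked 1 in the reproducible list, 1 in replicate 1 and 1 in replicate 2. In all, 6 genes of the set had a peak among the 10 strongest and 19 had one among the 100 strongest. Over the occupied genes the median rank was 706 of 3862, with quartiles at 134 and 1590. The median was 1452 over all occupied genes of the annotation, 2092 over occupied protein-coding genes and 340 over occupied tRNA genes. In replicate 1 the median rank of the occupied set was 708 and in replicate 2 it was 696.

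**Figure D1:**
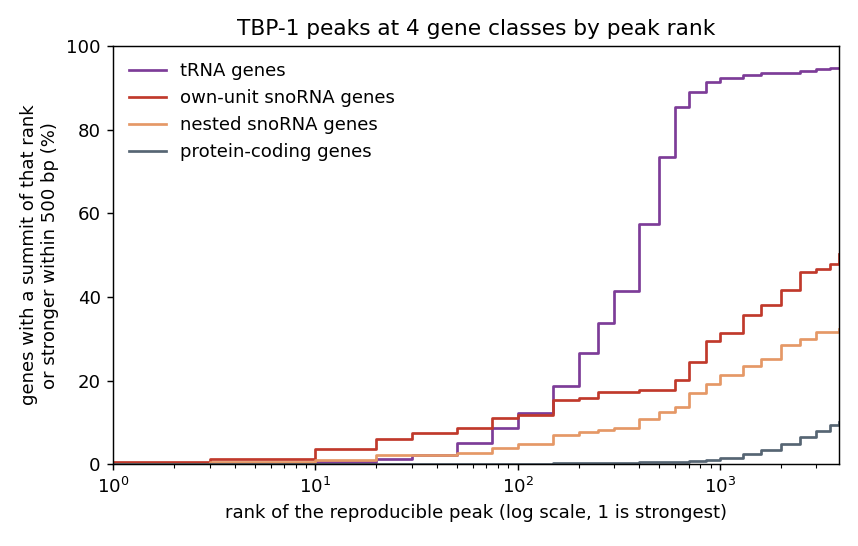
Percent of genes in 4 classes (y axis) with a reproducible TBP-1 summit within 500 bp of a 5′ end at or above a given peak rank (x axis, log scale, drawn in steps at chosen ranks). By rank 100 the curve of own-unit snoRNA genes stood at 11.7% and that of tRNA genes at 12.3%, and by rank 1000 they stood at 31.3% and 92.3%, while protein-coding genes reached 10.2% at the last rank.

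The ranks of the strongest members were close in the replicates. T06C12.16 had its summit 55 bp before the 5′ end in replicate 1 and 63 bp before it in replicate 2. W03C9.9 ranked 5 in the reproducible list and in each replicate. T03F7.8 ranked 7 in all 3 lists, and T19B4.8 ranked 8 in all 3. ZK265.10 ranked 4 in replicate 1 and 2 in replicate 2, and B0334.12 ranked 3 and 4, so these genes changed places. ZK484.9 ranked 11 in each list. F32E10.10 ranked 12 in replicate 1 and 15 in replicate 2, H09I01.2 ranked 13 and 17, and Y39G10AR.24 ranked 20 and 19. Of the 79 genes occupied in both replicates, 3 had ranks that differed by more than 1.5 times between them. The summit moved by a median of 7 bp between replicates and by at most 20 bp for 60 of the 79.

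**Figure D2:**
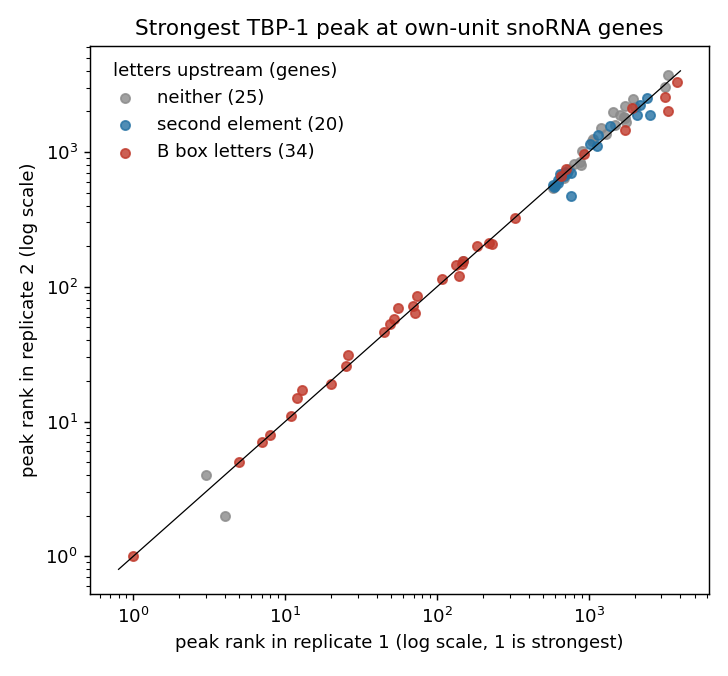
Rank of the strongest peak in replicate 1 (x axis) and replicate 2 (y axis), both on log scales, for the 79 own-unit snoRNA genes occupied in both; points are genes, coloured by the letters found upstream, with the 1 gene that had both kinds drawn as B box, and the line marks equal ranks. Genes with the B box letters take most places up to about rank 250, and genes with the second element begin at rank 582 in replicate 1 and 472 in replicate 2.

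In the set the letters went along with the ranks. Among the 28 genes with a peak ranked 1 to 250, 25 had the B box letters starting within 40 bp of the 5′ end and 1 had the second element within 100 bp, which was T03F7.8, where both occurred. This looser match was chosen after seeing the data. The exact match planned at the start, on either strand from 250 bp before to 50 bp after the 5′ end, was found in 16 of the 28. With the shorter planned letters GTTCNA in that window, occupied genes had a match less often than unoccupied ones, by a difference of -0.587 percentage points. Among the 30 genes ranked between 250 and 1300, 4 had the B box letters and 15 the second element. Among the 24 genes ranked lower, 5 had each. Among the 81 unoccupied genes, 18 had the B box letters, 4 the second element and 59 neither. Of all genes ranked 1 to 250, 20.7% had the B box letters and 4.36% the second element. Between 250 and 1300 these shares were 14.0% and 5.64%. Of the nested snoRNA genes ranked 1 to 250, 12 of 15 had the B box letters. Between 250 and 1300, 16 of 28 nested genes had them and 10 the second element. The nested gene ZK994.7 had the second element alone and ranked 16. The rank limits were set after the ranks were seen. The first lies in a gap of the set and the second, 1300, does not. Between ZK643.9, at rank 222, and Y53F4B.47, at rank 569, there was only M163.14, at rank 320, whose summit had a tRNA gene's 5′ end as the nearest and that of the protein-coding gene M163.11 within reach.

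Of the 51 genes with the B box letters alone, 33 were occupied, and their median rank was 112 with quartiles at 27 and 320. Of the 24 genes with the second element alone, 20 were occupied, and their median rank was 723 with quartiles at 650 and 1199. All 20 were occupied in both replicates, and the strongest, that of Y55F3BR.9, ranked 578. In replicate 2 the strongest peak near C16D9.10 was another one, at rank 472 with its summit 498 bp after the start. Of the 87 genes with neither, 28 were occupied (32.2%) at a median rank of 1358. B box letters at this looseness were common in the annotation, found at 15.4% of all genes and at 16.2% of protein-coding genes. The second element was found at 1.20% of all genes, 1.08% of protein-coding genes and 15.3% of the set.

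No unoccupied gene with the B box letters had an A box match. A match to the A box letters starting 80 to 35 bp before the 5′ end, on the gene's strand, accompanied the B box letters in 25 genes, and all 25 were occupied, in both replicates as well. Of the 27 genes with the B box letters and no A box match, 9 were occupied. The pair was found at 171 genes of the annotation (0.365%), of which 47 were snoRNA genes. Of the 56 protein-coding genes with the pair 5 were occupied (8.93%), which is near the background. The A box letters, their window and the mismatches allowed were chosen after these genes had been ranked, so the count describes the set and carries no test.

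The spacing within the pair varied little. The A box match began a median of 58 bp before the 5′ end, with quartiles at 59 and 55 bp, and the B box letters followed 44 bp after it, with quartiles at 44 and 45 bp. The TBP-1 summit lay within 30 bp of the first A box letter in all 25 genes, at a median of 2 bp before it. The peaks of 21 of the 25 ranked between 1 and 222. The other 4 were H04D03.5 at rank 651, K09E9.5 at 717, C17D12.8 at 934 and Y59E1B.14 at 2377. Y59E1B.14 ranked 3319 in replicate 1 and 2031 in replicate 2, so its place in the list is loosely fixed. A run of TTTT, the letters at which RNA polymerase III terminates, followed within 30 bp of the annotated 3′ end in 21 of the 25 genes. Across the whole set the run followed 77 genes, of which 53 were occupied, and was missing at 86, of which 29 were occupied. It followed 46.2% of all annotated genes.

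At genes with the second element the arrangement was different. In all 20 occupied genes with the element alone it began between 62 and 43 bp before the 5′ end, with a median of 48.5 bp. The match was exact in 14 of them. The summit lay a median of 14 bp after the first letter of the element and 37.5 bp before the gene. In the 4 unoccupied genes the element began at 50 bp in W07G1.23, 78 bp in F55A3.8, 88 bp in K07E1.2 and 42 bp in Y73B3A.30. In 3 of these the position was outside the range of those 20 occupied genes, from which the range was drawn. T03F7.8, which was occupied and had both kinds of letters, had the element at 94 bp. Among snRNA genes the element was found at 11 of 129 (8.53%), and at 9 of the 76 occupied ones (11.8%). Of the 48 snRNA genes whose peak ranked between 250 and 1300, limits set after the ranks were seen, 9 had it (18.8%). At tRNA genes it was found at 41 of 612 (6.70%), and at nested snoRNA genes at 14 of 183 (7.65%). Over all genes the share was 1.20%.

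**Figure D3:**
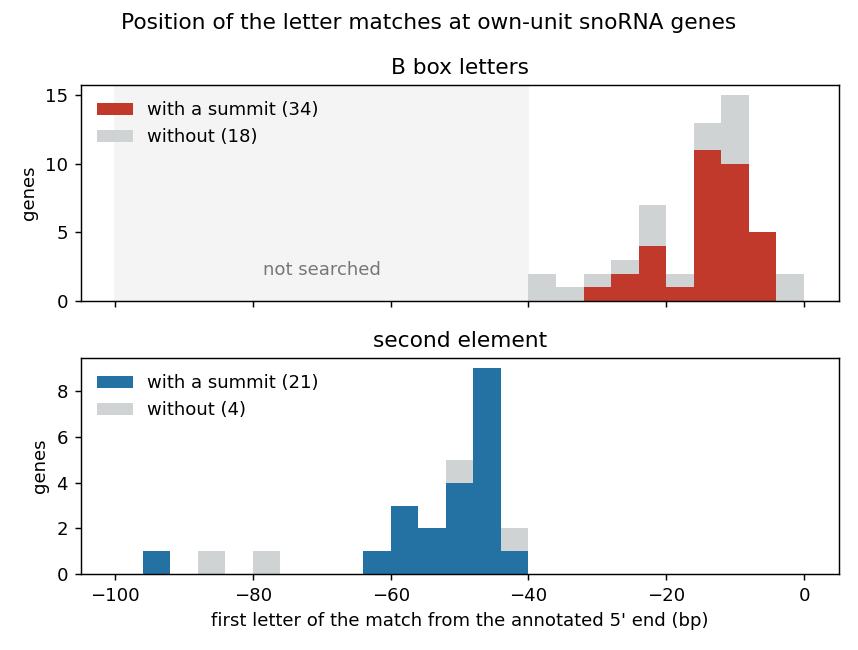
Position of the first letter of each match before the annotated 5′ end (x axis, bp) for the B box letters (top, searched from 40 bp) and the second element (bottom, searched from 100 bp) in own-unit snoRNA genes; bars count genes, coloured with and grey without a reproducible summit. The B box letters of occupied genes gathered at a median of 14 bp and the second element between 62 and 43 bp before the gene, apart from T03F7.8, which had both kinds and the element at 94 bp.

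Over all 82 occupied genes the summit lay a median of 55 bp before the 5′ end, with quartiles at 72.5 and 31 bp, and the median was 55 bp in each replicate. At 70 genes it lay upstream and at 12 downstream. Within 500 bp of 58 of the summits there was no protein-coding, tRNA, snRNA or rRNA 5′ end. A protein-coding 5′ end lay within reach of 24, and its part in those peaks was not tested. The annotated 5′ end of the snoRNA gene was the nearest of any gene to its summit in 70 cases. The farthest summits inside the limit were those of T07D4.7, 489 bp before its 5′ end, and M163.14, 479 bp after it.

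**Figure D4:**
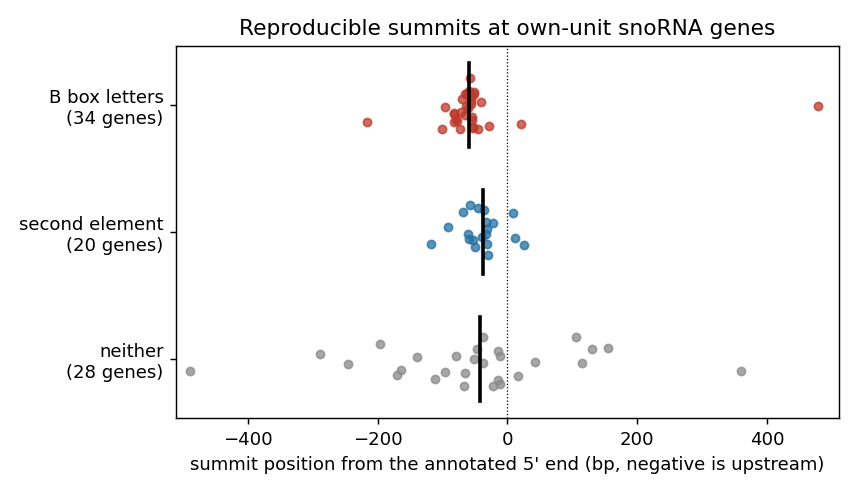
Position of the strongest reproducible summit from the annotated 5′ end (x axis, bp) at occupied own-unit snoRNA genes, in rows by the letters found upstream; points are genes and bars are medians, with the gene that had both kinds of letters drawn as B box. Most summits at genes with the B box letters (29 of 33 without the second element) or the second element (16 of 20) lie within 100 bp upstream of the gene, and those at genes with neither spread from 489 bp before it to 360 bp after it.

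Genes with a strong peak downstream of the annotated start were examined on the opposite strand. B0334.12, inside the potassium channel gene twk-5 and on the other strand from it, had the peak ranked 4, which ranked 3 in replicate 1 and 4 in replicate 2. Its summit lay 155 bp after the annotated 5′ end in each list, beyond the gene's other end by 86 bp. A 5′ end of twk-5 lay within 500 bp of that summit, and its part in the peak was not tested. No match stood before the annotated start of B0334.12. K07C10.2 had a peak ranked 665, with ranks of 680 and 639 in the replicates and the summit 105 bp after the start. The sequences below are the 80 bases that precede each gene when it is read on the minus strand, opposite to its annotation, followed by the first 20 bases of the annotated interval on that strand.
B0334.12, chrII:11484733-11484832, minus strand: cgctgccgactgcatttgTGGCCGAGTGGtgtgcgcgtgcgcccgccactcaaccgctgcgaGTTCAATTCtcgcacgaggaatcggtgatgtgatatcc
K07C10.2, chrII:11167284-11167383, minus strand: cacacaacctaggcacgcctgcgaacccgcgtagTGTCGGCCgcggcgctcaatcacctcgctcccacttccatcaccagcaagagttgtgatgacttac
B0334.12 had both boxes on the opposite strand, with the B box letters starting 18 bp before the interval, and K07C10.2 had the second element there, 46 bp before it. Both intervals also held TGATG near their start and CTGA near their end when read on the opposite strand, the letters of box C and box D, and not when read as annotated. A ncRNA gene, K07C10.6, is annotated on the minus strand at chrII:11167189-11167304, and its 5′ end was the nearest to the K07C10.2 summit. Over the set, box C and box D letters on the opposite strand were found in 3 of the 163 genes, against 13 on the annotated strand. The second element was found there in 2 of the 163 genes and the B box letters in 27. On the annotated strand the same B box match was found at 15.4% of all genes, and the second element at 1.20%. These observations were chosen after the values were seen.

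Of the other 4 genes with a summit more than 70 bp after the start, ZK484.11 had its summit at 130 bp and B box letters on the opposite strand, starting 4 bp before the interval. F07A11.15 had its summit inside the gene, 155 bp from its 3′ end, and such letters at 21 bp, and neither had box C and box D letters on that strand. A 5′ end of the protein-coding gene oaz-1 lay within reach of the ZK484.11 summit. The 5′ end nearest to the F07A11.15 summit was that of din-1, a protein-coding gene on the other strand. The part of oaz-1 and din-1 in these peaks was not tested. The summit of C27H5.10, 360 bp after its start, was that of C27H5.9, which had the pair of boxes and ranked 149 in the reproducible list, 149 in replicate 1 and 154 in replicate 2. A 5′ end of their opposite-strand host pdl-1 was also within reach of it. The summit of M163.14 lay nearest to a tRNA gene, WBGene00014449. ZK265.10 was the remaining gene of the first 250 ranks without the B box letters. It ranked 3, with ranks 4 and 2 in the replicates and a summit 79 bp upstream, and it had an A box match beginning 64 bp before its 5′ end.

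Related genes allowed peaks to be compared between nearly equal RNAs. No members had the same sequence, and 14 pairs were at least 70% identical over the gene. C46C2.8 and C53B7.8 were 94.5% identical, and ZK643.9 and K09E9.5 were 94.7% identical. The upstream sequences of these 4 genes are shown with the same marks as above.
C46C2.8, chrIV:9191314-9191413, minus strand: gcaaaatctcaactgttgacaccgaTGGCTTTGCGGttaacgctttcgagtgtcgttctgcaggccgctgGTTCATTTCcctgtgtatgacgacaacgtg
C53B7.8, chrX:6867858-6867957, plus strand: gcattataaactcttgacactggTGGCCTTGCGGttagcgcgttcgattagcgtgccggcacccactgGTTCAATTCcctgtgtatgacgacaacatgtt
ZK643.9, chrIII:8937687-8937786, plus strand: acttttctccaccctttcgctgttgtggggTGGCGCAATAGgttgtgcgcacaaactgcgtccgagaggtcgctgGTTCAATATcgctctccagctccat
K09E9.5, chrX:15619411-15619510, plus strand: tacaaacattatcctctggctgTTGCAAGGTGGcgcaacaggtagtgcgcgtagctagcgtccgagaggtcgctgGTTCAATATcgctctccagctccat
C46C2.8 ranked 74 in replicate 1 and 86 in replicate 2, and its X-linked relative C53B7.8 ranked 230 and 208. ZK643.9 ranked 221 and 212, and its X-linked relative K09E9.5 ranked 708 and 742. In each pair the order was the same in both replicates. With 2 pairs no statement about the X chromosome can be tested.

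The related genes that carried the second element fell into separate groups at this identity. Y67A10A.14 and F59C6.15 were 97.1% identical and ranked 587 and 601 in replicate 1 and 554 and 562 in replicate 2. F25H2.15, 94.9% identical to F59C6.15, ranked 764 and 695. F43A11.8, 87.9% identical to Y67A10A.14, ranked 1022 and 1144. T26A8.6 and T08B6.64, 85.7% identical to each other, ranked 628 and 684 in replicate 1. Y51H4A.940 and its closest relative on the same chromosome were 95.5% identical and ranked 2523 and 2086 in replicate 1 and 1897 and 1881 in replicate 2. Y48A6C.10, 77.8% identical to Y51H4A.940, ranked 2157 in replicate 1 and 2231 in replicate 2. W07G1.23, 77.5% identical to Y51H4A.940, was unoccupied and had peaks ranked 14911 and 6353 in the whole replicate lists.

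Length went along with occupancy. Of the 45 genes shorter than 100 bases, 35 were occupied at a median rank of 145. Of the 118 longer genes, 47 were occupied at a median rank of 1202. Among the short genes 21 had the B box letters alone and 19 of those were occupied, and among the long genes 30 had them and 14 were occupied. The letters of box C and box D were found in 7 genes, of which 6 were occupied, and an ACA near the 3′ end in 30, of which 15 were occupied. The other 126 had neither by these simple searches, and 61 of them were occupied.

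The age of the annotation also went along with occupancy. WormBase numbers genes as they are added, and 53 of the set have an identifier below WBGene00200000. Of these 49 were occupied (92.5%) at a median rank of 149. Of the 110 with a higher identifier 33 were occupied at a median rank of 1698. All 29 earlier genes with the B box letters alone were occupied, against 4 of 22 later ones. All 10 earlier genes with the second element alone were occupied, against 10 of 14 later ones. Among genes with neither, 9 of 13 earlier and 19 of 74 later ones were occupied. The 4 earlier genes without a reproducible summit all lacked both kinds of letters. The split was chosen after the values were seen, and the part that gene model quality has in the unoccupied count was not tested.

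By position, 124 genes lay outside protein-coding genes and 58 of them were occupied. Of the 33 inside a protein-coding gene on the opposite strand 20 were occupied, and of the 6 that partly overlapped a protein-coding gene 4 were. Occupied genes numbered 17 of 38 on chromosome I, 19 of 36 on II, 9 of 16 on III, 21 of 31 on IV, 9 of 19 on V and 7 of 23 on X. The share was lowest on X, at 30.4%, and highest on IV, at 67.7%. Nested snoRNA genes were also lowest on X, with 0 of 10 occupied, and highest on IV, with 12 of 28 (42.9%). The share of all genes by chromosome is not given here.

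The weakest occupied genes were T23G11.12 at rank 3292, W05B2.9 at 3509, T28B8.11 at 3651, Y41E3.464 at 3715 and F17C11.24 at 3717. T23G11.12 and Y41E3.464 were occupied in replicate 1 but not in replicate 2. For Y41E3.464 the replicate 1 summit was at another place, 480 bp after the 5′ end, while its reproducible summit lay 164 bp before it. The 5′ end nearest to that reproducible summit was that of the protein-coding gene fcd-2. T28B8.11 and F17C11.24 were occupied in replicate 2 but not in replicate 1, and W05B2.9 in neither replicate list at this depth of ranks. Just outside the limit were C26C6.13, Y17G7B.25, R08C7.19, B0379.13 and T19E7.29, whose peaks ranked 4152, 4169, 4264, 4303 and 5077 in the pooled list. C26C6.13 was counted as occupied in each replicate, with ranks of 3145 and 3061, but by summits at different places, 241 bp before the 5′ end in replicate 1 and 271 bp after it in replicate 2. R11A5.8 was occupied in replicate 2 alone, at rank 2397, with its replicate 1 peak at rank 5306. C33E10.11 had the B box letters and a peak ranked 841 in replicate 1, with no peak within reach in the 30000 of replicate 2.

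In the whole pooled list of 30000 peaks, background included, 120 of the 163 genes had a summit within reach (73.6%), against 42.6% of all genes. That left 43 without any. Among the 81 unoccupied genes 38 had such a pooled summit, at ranks from 4152 to 29485. T27A8.9 had an exact match to the B box letters, starting 11 bp before its 5′ end, a TTTT run after its 3′ end, no A box match and no summit in any list. Its upstream sequence is shown as an unoccupied example, chosen after its values were seen. Of the 27 genes with the B box letters and no A box match, 9 were occupied.
T27A8.9, chrX:16061376-16061475, minus strand: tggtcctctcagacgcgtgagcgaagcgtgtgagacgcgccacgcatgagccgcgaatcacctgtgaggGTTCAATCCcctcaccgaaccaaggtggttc

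The 183 nested snoRNA genes served as the comparison, and 59 of them were occupied (32.2%), 18.1 percentage points below the own-unit set. The difference was 11.0 points with a 1000 bp window and 2.04 points with the whole pooled list. In each replicate 64 nested genes were occupied, against 83 and 84 of the own-unit genes. The difference is a description of gene counts, which are not replicates, and was not tested. By letter class, with the B box letters alone 28 of 44 nested genes were occupied (63.6%), against 64.7% of the own-unit genes. With the A and B box pair 21 of 22 nested genes were occupied, against 25 of 25. With the second element alone 8 of 9 nested genes were occupied, against 20 of 24. With neither, 18 of 125 nested genes were occupied (14.4%), against 32.2%. Of the 28 occupied own-unit genes with neither, 14 had a protein-coding 5′ end within reach of the summit and 14 did not. Either kind of letters was present in 76 of the 163 own-unit genes and in 58 of the 183 nested ones. Occupied nested genes had a median summit 66 bp before the 5′ end and a median rank of 649, close to the 55 bp and rank 706 of the own-unit set. Among the 100 strongest ranks there were 9 nested and 19 own-unit genes.

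Genes for the proteins that work with snoRNAs and for their transcription were taken as a fixed list of 16 names, of which 13 matched the annotation, and 7 of the 13 were occupied. They are protein-coding genes, and 10.2% of all protein-coding genes were occupied. fib-1, which encodes fibrillarin, had a peak ranked 1051 with its summit 84 bp upstream, at rank 1056 in replicate 1 and 1178 in replicate 2. The other box C/D protein genes with a summit were nol-56 at rank 1987, nol-58 at 1408 and snu-13 at 2230. Of the box H/ACA protein genes, dkc-1, for dyskerin, ranked 1307, Y48A6B.3 ranked 1306 and garr-1 ranked 2799. nola-3 had no reproducible summit. The summits of these 6 genes other than fib-1 lay between 400 and 247 bp before the 5′ end, farther out than the median of 55 bp at the snoRNA genes. The SNAP complex genes snpc-1.1, snpc-3.1 and snpc-4, the TFIIIB gene brf-1 and the polymerase III gene rpc-1 had none either.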

How the data were processed

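Peaks of tagged TBP-1 were taken from 4 lists in narrowPeak format on ce11, per the deposited file descriptions: 1 per replicate and 1 for the pooled replicates, with 30000 peaks each, background included, and the 3862 reproducible peaks that the authors kept by the irreproducible discovery rate. The authors' signal value, whose scale is not stated, gave the rank of each peak in its list. The authors' −log10 q value did not vary over the reproducible list and was not used. The peak caller, the aligner and the read depth are not given in the sources used, so no interval is given. The control alignment was not analysed here.

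Genes came from Ensembl release 115 and sequence from the RefSeq genome of the same build, WBcel235. A gene was occupied when a summit lay within 500 bp of a 5′ end, and the strongest summit was kept. In each replicate the strongest 3862 peaks were used. Letters were searched on the gene's strand at the positions given, the earliest of equal matches being kept. In the searches planned at the start, an exact GTTCNANNC on either strand from 250 bp before to 50 bp after the 5′ end was found in 33 own-unit genes, of which 21 were occupied, and at 10.0% of all genes. An exact GCNNAGTGG was found in 11 of the set and at 1.50% of all genes. TATAAA was found in 48 of the set (29.4%), of which 26 were occupied, and at 37.4% of all genes. Box C and D letters were TGATGA in the first 15 bases and CTGA in the last 15, or, where either strand was read, TGATG and CTGA within 20 bases of the ends and 5 beyond. An ACA was searched in the last 8 bases. Identity was computed by global alignment. Python 3.11.15, pandas 2.3.3, numpy 2.4.6, Biopython 1.88 and matplotlib 3.10.9 were used, and the search steps were checked on simulated data. No test was run, since the series has 1 group and genes are not replicates. The members and lists were chosen with earlier results of these data known. Named genes are the 10 strongest and 5 weakest occupied, the 5 nearest to the threshold, those in 1 replicate, those with far downstream summits or shared peaks, and the protein list; other genes named were chosen after their values were seen.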

Additional observations from a re-analysis of the deposited data

How the results depend on the processing

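The count of occupied own-unit genes ranged from 58, when genes whose summit had a protein-coding 5′ end within reach were left out, to 120 with the whole pooled list, and stayed within 1.5 times of 82 in all settings; it was 79 with a 250 bp window, 91 with 1000 bp, 68 with the 1931 strongest peaks and 71 when a summit went only to the nearest 5′ end of any gene. With a single replicate it was 83 or 84. With a same-strand host of any class counted as nested it was 80 of 156 genes. With any same-strand overlap with a protein-coding gene counted as nested it was 81 of 162. Nested genes fell to 38 with the nearest 5′ end and rose to 131 with the pooled list. Protein-coding genes were 1274 with 250 bp, 911 with the stronger peaks and 7142 with the pooled list. The difference between own-unit and nested genes, 18.1 percentage points, was 23.9 with 250 bp, 11.0 with 1000 bp, 14.9 with the stronger peaks, 22.8 with the nearest 5′ end and 14.99 when the peak interval was used, and with 1 replicate left out it lay between 15.9 and 16.6. It was 2.04 with the pooled list. The cause was not tested. The median summit position was -53 with 1000 bp, -54.5 with the stronger peaks, -56 with the nearest 5′ end and -55.5 with the summit nearest to the gene. The median percentile of the peak signal, 81.7 in the list of reproducible peaks, was 81.0 with 1000 bp, 68.0 with the stronger peaks, where the list itself is shorter, and 82.5 with the nearest 5′ end; with 1 replicate left out it was 81.7 or 82.0. The exact B box letters were more frequent in occupied than in unoccupied genes by 10.8 percentage points, by 12.04 with 150 bp, by 9.81 to 10.3 with 1 replicate, and by 19.2 with the looser match of the report, chosen after seeing the data. With the shorter letters GTTCNA the difference turned to -0.587. No paired analysis was possible because there is 1 group.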
